A study of Mus musculus with 32 samples.

Results

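The 10 genes described here encode Tudor domain proteins and were listed together as germ granule genes: Tdrd1, Tdrd3, Tdrd5, Tdrd6, Tdrd7, Tdrd9, Tdrd12, Tdrkh, Rnf17 and Stk31. They were taken by symbol and not by a cut on measured values, though earlier results of these data were known. All 10 were found among the 20368 genes of the juvenile gene table and in the adult table. The study sequenced polyadenylated RNA of germ cells through the first wave of spermatogenesis in male C57BL/6J mice, for which the labels name no allele or treatment. There were 28 juvenile samples, each from 1 mouse, with 3 mice at 8 days postpartum (dpp) and 5 mice at each of 10, 12, 14, 16 and 18 dpp. The paper had left out further 8 dpp samples after inspecting the data. They matched others of their age poorly, which it put down to a likely shortage of cells. A separate adult group of 4 samples held pachytene and diplotene spermatocytes that had been enriched by sedimentation, each sample pooled from several mice of 9 weeks. Levels are given in TPM, a measure of transcript abundance that is scaled by transcript length and library total, so that levels of different genes can be compared.

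A Tudor domain binds methylated arginine or lysine residues. In male germ cells many such proteins, though not all, dock on the methylated arginines of PIWI proteins and gather with them in cytoplasmic granules. These are the intermitochondrial cement and piP-bodies of younger cells and the chromatoid body of late spermatocytes and spermatids. There they take part in making piRNAs, the small RNAs that silence transposons, and loss of many of them leaves male mice sterile.

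By the paper's cell counts, germ cells made up the great majority of cells in every juvenile sample. Most cells of the adult samples were pachytene or diplotene spermatocytes. Those are shares of cells and not of RNA. Here the label of germ cells was set against marker genes. The 8 Sertoli cell markers, led by Clu, summed to a median of 6986 TPM at 8 dpp, 3362 TPM at 18 dpp and 371 TPM in the adult samples. The 9 spermatocyte markers summed to 395, 4359 and 8542 TPM in the same groups, and the 5 spermatid markers to 1.41, 2.34 and 1020 TPM. Ldhc, a lactate dehydrogenase of pachytene cells, carried the higher adult spermatocyte sum, with means of 2396 TPM at 18 dpp and 6852 TPM in the adult samples. Sycp2, Spo11, Pgk2 and Ccna1 also had higher adult means, whereas those of Sycp1, Sycp3, Hormad1 and Dmc1 were lower than at 18 dpp. Sertoli cell genes were thus measured in the juvenile samples, with a lower sum at 18 dpp than at 8 dpp. Rhox5 alone of the 8 had a higher mean at 18 dpp, 68.4 TPM against 36.6 TPM at 8 dpp. The part of somatic RNA in the differences described here was not tested. In bulk samples, fewer cells of a type and less RNA per cell cannot be told apart. Mice 4 and 5 at 18 dpp stood apart from mice 1 to 3. Their spermatocyte sums were 2971 and 2994 TPM against 4359, 4555 and 4482 TPM, and their Sertoli sums were 4143 and 4197 TPM against 3276, 3220 and 3362 TPM. Ldhc also carried most of the difference in these spermatocyte sums, at 1589 and 1543 TPM against 2917, 3038 and 2891 TPM. Without it the sums were 1382 and 1450 TPM against 1442, 1517 and 1590 TPM, which overlapped. Of the 9 spermatocyte markers, Ldhc, Pgk2, Ccna1, Spo11 and Sycp2 were lower in both of these mice, Sycp1, Hormad1 and Dmc1 were higher, and Sycp3 overlapped. Of the 8 Sertoli markers 7 were higher and Sox9 overlapped.

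All 10 genes were higher at 18 dpp than at 8 dpp, and in none of them did the mice of the 2 ages overlap. Of all genes, 29% had every mouse of 18 dpp above every mouse of 8 dpp. The rises on the log2(TPM + 1) scale ran from 0.89 (SE 0.08) for Tdrkh to 7.38 (SE 0.36) for Tdrd6, and adjusted p-values lay between 1.31e-15 and 4.02e-10 (limma across all genes, Benjamini-Hochberg adjustment, threshold 0.05). Of all genes tested, 31.8% were called higher in this comparison. In the F test for any difference among the 6 ages, too, all 10 were called, as were 77.6% of all genes. The median of the 10 rises was 1.80, beside a median of -0.09 over all genes. With mice 4 and 5 of 18 dpp left out together, all 10 were still called. Summed over the 10 genes, the level was 222 to 260 TPM at 8 dpp, 882 to 1239 TPM at 18 dpp and 1852 to 1899 TPM in the adult samples.

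**Figure D1:**
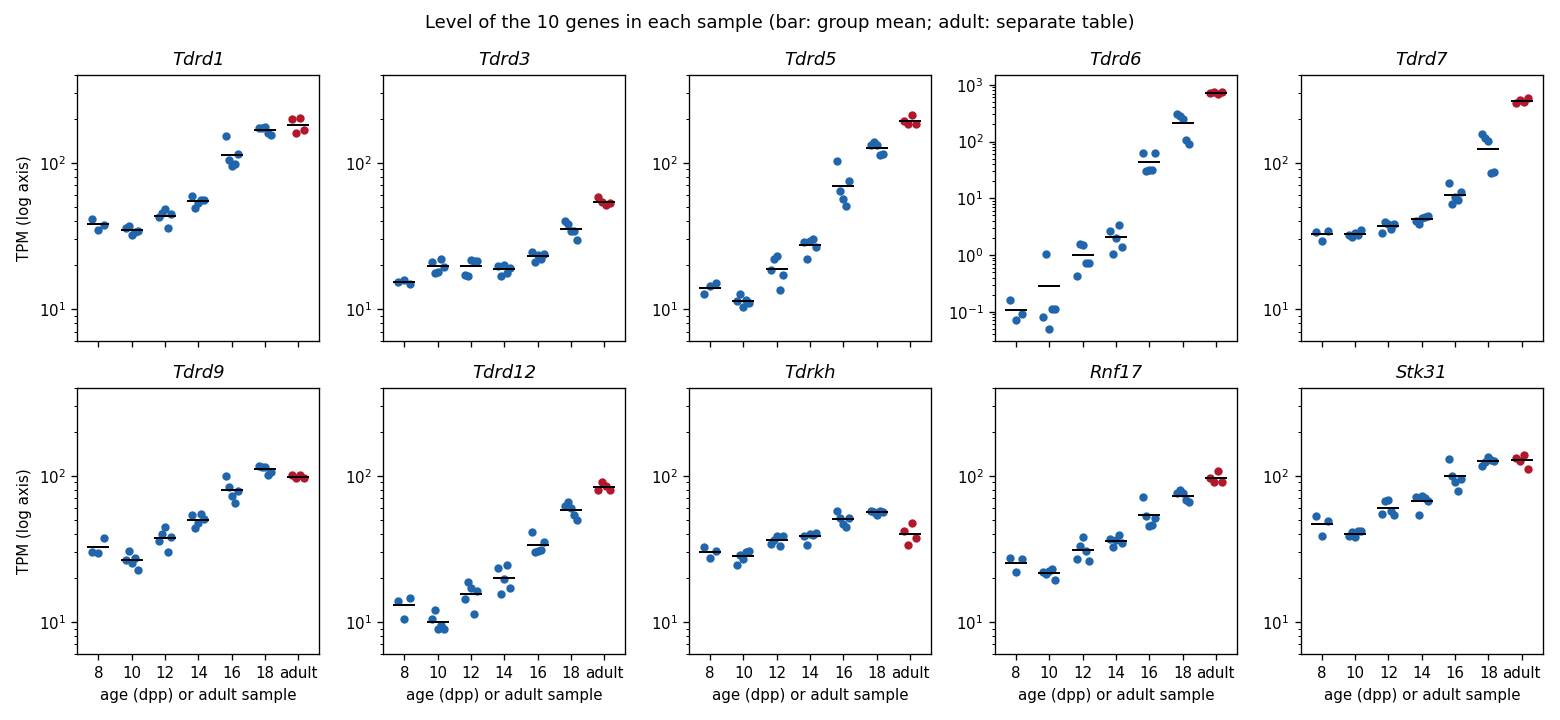
Level of each gene in every sample, in TPM on a log axis, against age in dpp and with the adult samples at the right. Points are samples, bars are group means, and the adult values come from a separate table; 9 of the 10 genes lie between 8.92 and 279 TPM throughout, while Tdrd6 goes from 0.107 TPM at 8 dpp to 728 TPM in the adult samples.

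The rise was not even over time. From 8 to 10 dpp no gene was called (adjusted p of 0.108 or more, limma), and 1.2% of all genes were called in either direction. An unadjusted p under 0.05 was found for 3 of the 10 and for 11.5% of all genes. From 10 to 12 dpp 7 of the 10 rose, when 12% of all genes were called higher: Tdrd1, Tdrd5, Tdrd9, Tdrd12, Tdrkh, Rnf17 and Stk31. The mice of the 2 ages did not overlap for 4 of the 10, and 10% of all genes had every mouse of 12 dpp above those of 10 dpp. From 12 to 14 dpp no member was called, and 0.172% of all genes were. An unadjusted p under 0.05 was found for 4 of the 10 and for 9.63% of all genes. From 14 to 16 dpp all 10 rose against 12.7% of all genes, with no overlap between the mice of the 2 ages for any of them. Of all genes, 10.7% were higher without overlap at this step. From 16 to 18 dpp all 10 rose again against 23.4% of all genes, although the call for Tdrkh was lost in 23 of the 40 alternative settings. For 7 of the 10 the mice did not overlap, as against 13.2% of all genes. The steps from 14 to 18 dpp made up between 61.6% (Tdrkh) and 81.7% (Tdrd7) of each gene's log2 rise from 8 to 18 dpp.

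**Figure D2:**
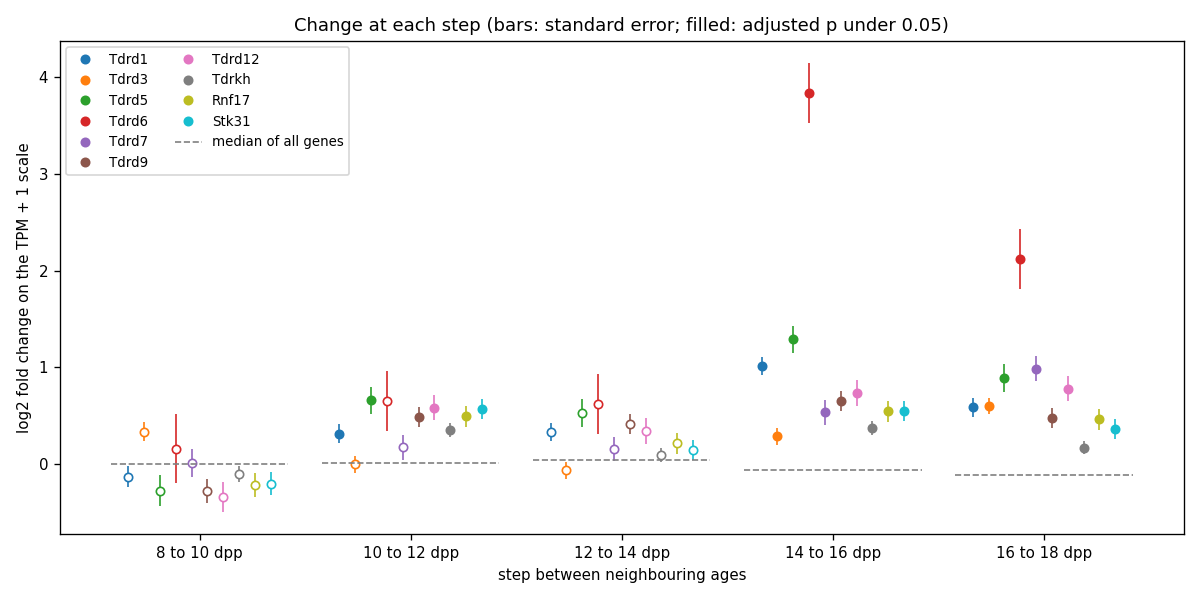
Log2 fold change at each step between neighbouring ages, on the TPM + 1 scale, with the standard error from limma as bars. Filled points have an adjusted p under 0.05, dashed lines are the median of all genes, and every point is filled from 14 to 16 dpp, where Tdrd6 stands at 3.84 and the next gene, Tdrd5, at 1.29.

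Tdrd6 (ENSMUSG00000040140, chr17:43615335-43630299, minus strand, GRCm38) encodes a large protein with several Tudor domains that builds the chromatoid body. It was nearly silent in the young mice and the most abundant of the 10 in the oldest group. At 8 dpp it stood at 0.16, 0.07 and 0.09 TPM in mice 1 to 3. At 10 dpp it was 0.08, 1.05, 0.05, 0.11 and 0.11 TPM, with mouse 2 alone above the rest. Values at 12 dpp were 0.42, 1.59, 1.51, 0.72 and 0.73 TPM, and at 14 dpp, in mice 1, 2, 3, 6 and 7, they were 2.65, 1.02, 2.00, 3.39 and 1.40 TPM. Up to this age all mice but 1 lay under the 3 TPM that the study took as expressed. At 16 dpp the gene reached 63.4, 30.6, 32.0, 31.0 and 63.5 TPM, every mouse above every mouse of 14 dpp (log2 fold change 3.84, SE 0.31, adjusted p = 1.20e-09, limma). Mice 1 and 5, the highest, were also those with the highest spermatocyte sums of this age, 2600 and 1947 TPM, of which Ldhc made up 1191 and 936 TPM. At 18 dpp it reached 307, 285, 252, 105 and 89.9 TPM (log2 fold change from 16 dpp 2.12, SE 0.31, adjusted p = 5.46e-06, limma). Mice 4 and 5 were the lowest at this age yet above every mouse of 16 dpp. The adult samples held 719, 751, 690.5 and 752 TPM. Ranked by group mean among the genes of the juvenile table, Tdrd6 was number 19330 of 20368 at 8 dpp, 4663 at 16 dpp and 725 at 18 dpp, and 171 of 20366 in the adult samples. Its share of the summed level of the 10 genes was 0.043% at 8 dpp, 18.3% at 18 dpp and 38.9% in the adult samples. At 18 dpp its transcripts Tdrd6-203, Tdrd6-202 and Tdrd6-201 took 39.7%, 30.8% and 29.5% of its TPM. A fold change from such low values depends on the pseudocount, and it ranged from 6.90 to 9.82 (log2, 18 minus 8 dpp) over the 40 alternative settings.

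The genes whose log2 profiles lay closest to that of Tdrd6 over the 28 mice were Tcp11 and Adam32, with a mean absolute difference of 0.21 and 0.23 after centring. Tcp11 was at 613, 552, 554, 255 and 235 TPM in mice 1 to 5 at 18 dpp, and Adam32 at 354, 352, 309, 140.2 and 125 TPM. Both thus had their low values in mice 4 and 5. Those mice were among the 28 by which the genes were picked, so the likeness is no separate evidence.

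Tdrd7 (ENSMUSG00000035517, chr4:45965334-46034761, plus strand), another chromatoid body component, also known from RNA granules of the eye lens, passed the test at no step before 14 dpp. It was at 33.4, 29.2 and 34.3 TPM at 8 dpp and at 39.7, 38.2, 42.1, 42.7 and 43.1 TPM at 14 dpp. It then reached 72.9, 52.5, 58.2, 55.4 and 63.1 TPM at 16 dpp (log2 fold change 0.53, SE 0.13, adjusted p = 0.00280, limma). At 18 dpp it stood at 158, 149, 142, 85.2 and 87.1 TPM (log2 fold change 0.99, SE 0.13, adjusted p = 1.83e-06, limma). All 5 mice were above those of 16 dpp, again with mice 4 and 5 the lowest. The 4 adult samples held 259, 268, 262 and 279 TPM, all above the 18 dpp mice.

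Tdrd7 has 2 protein-coding transcripts with starts of their own, beside 3 short noncoding ones that begin further downstream. Tdrd7-201, from the second coding start, took a mean of 53.7 TPM over the 28 mice, whereas Tdrd7-202, which begins 6899 bases upstream, took 0.0004 TPM. The bases before both starts are shown so that the used and the unused start can be compared (RefSeq promoter sequences, GRCm38, plus strand, 5′ to 3′, ending at the base before the start, chr4:45972047-45972232 and chr4:45965085-45965333). Capitals mark AACNG on either strand, the short core that MYB factors such as the pachytene regulator MYBL1 (A-MYB) recognise.
Tdrd7-201: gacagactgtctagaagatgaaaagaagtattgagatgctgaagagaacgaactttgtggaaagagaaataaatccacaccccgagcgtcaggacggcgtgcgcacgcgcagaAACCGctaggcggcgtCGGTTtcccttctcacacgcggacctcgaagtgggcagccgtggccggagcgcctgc
Tdrd7-202: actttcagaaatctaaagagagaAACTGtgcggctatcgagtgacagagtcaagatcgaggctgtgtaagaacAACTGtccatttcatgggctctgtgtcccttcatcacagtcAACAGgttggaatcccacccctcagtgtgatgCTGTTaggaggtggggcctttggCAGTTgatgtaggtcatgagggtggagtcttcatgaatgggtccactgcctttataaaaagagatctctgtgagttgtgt
The used start held 2 matches, first bases 73 and 57 before it, and the unused start held 5.

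Tdrd5 (ENSMUSG00000060985, chr1:156255296-156303664, minus strand), needed for chromatoid body assembly and for piRNAs made in pachytene cells, had the largest rise after Tdrd6. It was at 12.6, 14.3 and 15 TPM at 8 dpp and at 11.4, 12.6, 10.2, 11.5 and 11 TPM at 10 dpp. At 12 dpp its 5 values were 18.5, 22.0, 22.9, 13.4 and 17.1 TPM, all above those of 10 dpp (log2 fold change 0.66, SE 0.14, adjusted p = 0.00114, limma). Its mean was 27.2 ± 3.29 TPM at 14 dpp (SD, n = 5), and the means of the next ages were 69.6 ± 20.4 and 126 ± 11.5 TPM (SD, n = 5 each). Mouse 1 was the highest at 16 dpp with 102 TPM. The same mouse had the highest spermatocyte sum of its age, 2600 TPM against 1402 to 1947 TPM in the other 4. The adult samples held 194, 185, 212 and 185 TPM. Tdrd5-201 and Tdrd5-204, with 18 exons each, shared the gene's level almost evenly, at 48.9% and 49.7% at 18 dpp.

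Rnf17 (ENSMUSG00000000365, chr14:56402581-56525032, plus strand) encodes a protein with a RING finger and Tudor domains that forms granules of its own. Its mean at 8 dpp was 25.4 ± 3.09 TPM (SD, n = 3), which had become 73.2 ± 6.01 TPM (SD, n = 5) by 18 dpp. From 16 to 18 dpp the call was made (log2 fold change 0.46, SE 0.11, adjusted p = 7.21e-04, limma) although mouse 1 of 16 dpp, at 71.9 TPM, lay above mice 4 and 5 of 18 dpp at 67.8 and 65.9 TPM. The adult samples, at 90.7 to 108 TPM, were above every 18 dpp mouse.

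Tdrd1, Tdrd9, Tdrd12 and Tdrkh act in piRNA production in the granules around mitochondria and in piP-bodies, and 3 of them were already at mean levels of 30.2 to 37.9 TPM at 8 dpp. Tdrd1 (ENSMUSG00000025081, chr19:56826209-56870012, plus strand), which binds the PIWI protein PIWIL2, was at 41.3, 34.9 and 37.4 TPM at 8 dpp. It stood at 58.9, 49.2, 53.2, 55.2 and 55.8 TPM at 14 dpp and at 153, 104, 94.4, 97.4 and 115 TPM at 16 dpp. The mice of the 2 ages did not overlap (log2 fold change 1.02, SE 0.09, adjusted p = 7.34e-09, limma). At 18 dpp its values were 172, 173, 175, 159.9 and 155 TPM, all above 16 dpp (log2 fold change 0.58, SE 0.09, adjusted p = 1.62e-05, limma). In the adult samples it was at 199, 161, 203 and 167 TPM, which overlapped the 18 dpp mice.

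Tdrd1 likewise had a start at which hardly any level was assigned. Tdrd1-203 starts at the first base of the gene and took a mean of 62.7 TPM over the 28 mice, and 2 more transcripts start within 100 bases of it. Tdrd1-202, which begins 4503 bases downstream, took 0.0557 TPM and was listed at 0 at every age before 18 dpp. The 250 bases before each of these starts are shown (RefSeq, GRCm38, plus strand, chr19:56825959-56826208 and chr19:56830462-56830711), with AACNG on either strand in capitals.
Tdrd1-203: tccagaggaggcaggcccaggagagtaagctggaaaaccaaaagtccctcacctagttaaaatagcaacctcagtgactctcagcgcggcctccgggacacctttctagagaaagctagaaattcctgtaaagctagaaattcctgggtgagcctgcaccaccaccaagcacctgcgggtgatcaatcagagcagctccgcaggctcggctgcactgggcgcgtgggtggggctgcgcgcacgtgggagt
Tdrd1-202: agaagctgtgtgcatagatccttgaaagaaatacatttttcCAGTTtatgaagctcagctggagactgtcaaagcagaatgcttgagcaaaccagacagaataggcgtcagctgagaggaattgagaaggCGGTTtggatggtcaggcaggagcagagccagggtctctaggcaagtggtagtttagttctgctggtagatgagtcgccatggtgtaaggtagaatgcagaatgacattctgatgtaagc
The used start held no match and the downstream start held 2.

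Tdrd9 (ENSMUSG00000054003, chr12:111971559-112068854, plus strand), a helicase that partners the PIWI protein PIWIL4 in fetal germ cells, was at 32.5 ± 4.41 TPM in the 8 dpp mice (SD, n = 3). By 18 dpp it had reached 111 ± 7.06 TPM (SD, n = 5), a log2 rise of 1.75 (SE 0.12). The adult samples, at 95.9 to 101 TPM, overlapped only the lowest 18 dpp mouse, which stood at 101 TPM. Rd3l, which overlaps it on the other strand, was listed at 0 in every sample. Tdrd12 (ENSMUSG00000030491, chr7:35469098-35537745, minus strand), a helicase-like protein needed for secondary piRNAs, was at 13 ± 2.23 TPM in the 8 dpp mice (SD, n = 3). In those of 18 dpp it was at 58.3 ± 6.49 TPM (SD, n = 5), a log2 rise of 2.09 (SE 0.15). Its adult values of 79.2 to 90.1 TPM lay above every 18 dpp mouse. Nearly all of its level went to Tdrd12-201, a transcript of 12 exons and 1620 bases, at 98.9% at 18 dpp. The bases before the starts of Tdrd9 and Tdrd12 are shown because their lone AACNG match, in capitals, lay within 20 bases of the start (RefSeq, GRCm38, chr12:111971309-111971558 on the plus strand and chr7:35537746-35537994 on the minus strand). The share of all promoters with a match so near the start was not counted.
Tdrd9-201: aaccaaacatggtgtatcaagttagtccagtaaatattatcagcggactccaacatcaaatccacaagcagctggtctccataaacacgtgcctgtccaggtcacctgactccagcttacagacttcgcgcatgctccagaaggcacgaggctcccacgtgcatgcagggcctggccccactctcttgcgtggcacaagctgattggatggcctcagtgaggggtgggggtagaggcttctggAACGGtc
Tdrd12-201: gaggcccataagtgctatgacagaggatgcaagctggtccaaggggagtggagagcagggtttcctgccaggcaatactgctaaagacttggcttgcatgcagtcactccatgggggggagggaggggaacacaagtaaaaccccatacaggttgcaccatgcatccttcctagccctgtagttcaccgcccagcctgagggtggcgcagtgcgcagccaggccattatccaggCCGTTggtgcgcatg

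Over the members as a whole such matches did not stand out. RefSeq promoters were at hand for 8 of the 10 genes (none for Rnf17 and Tdrd6). Within 250 bases before the RefSeq start 6 of 8 held AACNG (75%), beside 74.2% of all 32851 promoters. GTTGCC, found in RFX sites, was in 0 of 8 against 10.4% of all promoters. TGACGT, the core of the cAMP response element, was in 0 of 8 against 6.47%. GCGGGAA, an E2F site, was in 1 of 8, that of Tdrd5, against 3.82%. The RefSeq start of Tdrd5 lay 316 bases downstream of the start of its most abundant transcript. Its E2F and 2 AACNG matches thus lay inside the annotated gene. Both strands were searched, and the letters show neither binding nor its absence. From predicted targets, the paper proposes that MYBL1 belongs to a network with piRNA genes, among them Tdrd1, Tdrd6 and Tdrd7. That was not tested by these matches.

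Tdrkh (ENSMUSG00000041912, chr3:94413273-94434668, plus strand) anchors piRNA trimming on mitochondria and had the smallest rise. It was at 32.7, 27.5 and 30.5 TPM at 8 dpp, at 57.7, 51.7, 46.6, 44.7 and 51.0 TPM at 16 dpp and at 57.8, 56.5, 54.1, 57.7 and 56.8 TPM at 18 dpp. The last 2 ages overlapped, and the step between them only just passed (log2 fold change 0.17, SE 0.07, adjusted p = 0.0478, limma). At 41.7, 33.6, 47.4 and 37.3 TPM, the adult samples were below every 18 dpp mouse, at 0.707 of their mean, which held for no other member. Oaz3, an antizyme gene of spermatids, overlaps Tdrkh on the other strand. Oaz3 was at 1.00 to 3.44 TPM at 18 dpp and 87.1 to 147 TPM in the adult samples. Strand is not stated for the libraries, so reads of the overlap cannot be told apart. The 2 Tdrkh transcripts kept their shares, at 56.3% and 43.7% at 8 dpp and 53.1% and 46.9% at 18 dpp.

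Stk31 (ENSMUSG00000023403, chr6:49395604-49469501, plus strand), which joins a Tudor domain to a kinase-like domain, had the highest level of the 10 at 8 dpp, 46.9 ± 7.35 TPM (SD, n = 3). It stood at 53.2, 38.8 and 48.6 TPM there, at 38.4, 41.5, 37.9, 41.8 and 41.6 TPM at 10 dpp and at 54.6, 67.6, 67.8, 57.5 and 54.0 TPM at 12 dpp. All mice of 12 dpp were above those of 10 dpp (log2 fold change 0.57, SE 0.10, adjusted p = 2.10e-04, limma), the lowest adjusted p of the 10 genes at that step. At 18 dpp its level was 126 ± 6.25 TPM (SD, n = 5), and the adult samples at 111 to 139 TPM overlapped these mice.

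Tdrd3 (ENSMUSG00000022019, chr14:87416639-87545504, plus strand) reads methylated arginines on histones and RNA polymerase II, works with the topoisomerase TOP3B and is made in many tissues. At 15.4, 15.9 and 14.7 TPM at 8 dpp, 21.1, 17.6, 18.0, 22.1 and 19.3 TPM at 10 dpp and 19.6, 16.9, 19.9, 17.6 and 19.1 TPM at 14 dpp, it passed the test at no step before 14 dpp, although every mouse of 10 dpp was above those of 8 dpp (adjusted p = 0.108, limma). It then stood at 24.7, 20.8, 23.3, 22.1 and 23.7 TPM at 16 dpp (log2 fold change 0.29, SE 0.09, adjusted p = 0.0162, limma) and at 40.1, 38.3, 34.4, 34.2 and 29.8 TPM at 18 dpp (log2 fold change 0.60, SE 0.09, adjusted p = 4.46e-06, limma). Neither step showed overlap between the mice. The call from 14 to 16 dpp was lost in 4 alternative settings: without mouse 2 of 14 dpp (adjusted p = 0.0501, limma), without mouse 1 of 16 dpp (0.0506), with mice 1 to 3 of each age alone (0.0857) and with a replicate block (0.0883). In the last of these settings, the 14 dpp mean rested on mice 1 to 3 of that age. The adult samples, at 51.4 to 58.0 TPM, lay above every juvenile mouse.

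Tdrd3 was also the 1 member of 6 tested with a call on transcript shares between 8 and 10 dpp and 16 and 18 dpp (called: adjusted p under 0.05 and a change of 20 percentage points or more). Of all genes tested, 5.51% had such a transcript, and of all transcripts 2.39%. Tdrd3-203 (ENSMUST00000169504, 12 exons, chr14:87416639-87514766) took 38.5%, 43.8% and 47.0% of the gene's TPM in the 8 dpp mice. It took 28.2%, 30.4%, 26.4%, 30.1% and 28% at 10 dpp, and 6.17%, 9.41%, 10.6%, 8.05% and 10.3% at 18 dpp. No mouse of 8 or 10 dpp overlapped one of 16 or 18 dpp, and the share fell by 25 points (SE 1.33, adjusted p = 2.36e-12, limma on percentages). Its own level went from 5.91, 6.95 and 6.91 TPM at 8 dpp to 2.47, 3.60, 3.64, 2.75 and 3.07 TPM at 18 dpp. Tdrd3-202 (ENSMUST00000168275, 14 exons, ending at base 87545504) went over the same span from 9.46, 8.90 and 7.78 TPM to 35.3, 31.2, 25.2, 26.5 and 26.8 TPM. Its share rose by 19.8 points (SE 3.00, adjusted p = 3.75e-05, limma), just under the 20 points required. Tdrd3-202 was the larger of the pair in the means at both ends of this span. Both transcripts start at the same base and differ at their 3′ ends.

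**Figure D3:**
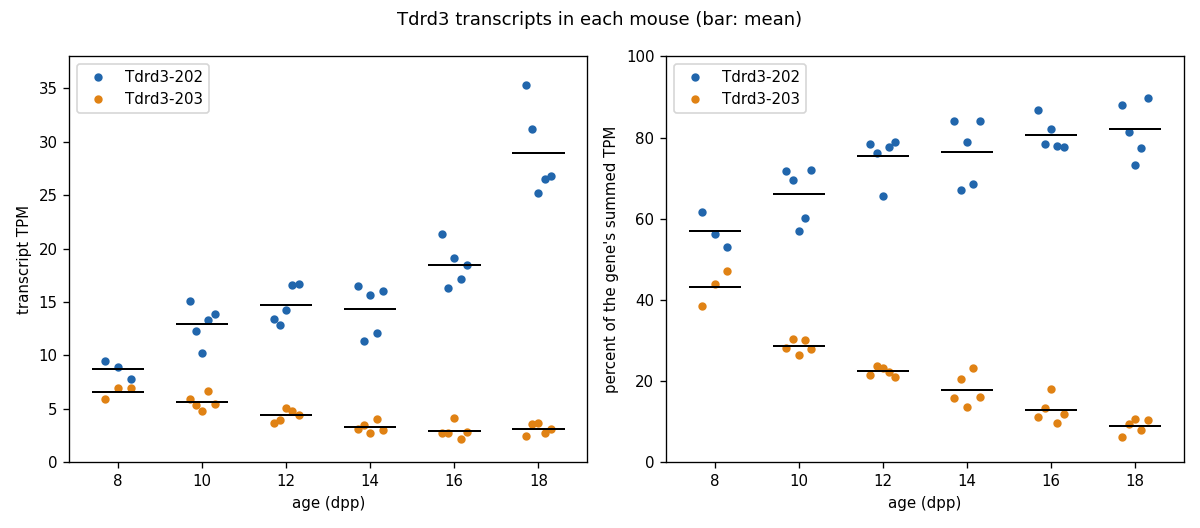
Tdrd3-202 and Tdrd3-203 in each juvenile mouse, as TPM at the left and as a percentage of the gene's summed TPM at the right, with group means as bars. The share of Tdrd3-203 goes from 43.1% at 8 dpp to 8.90% at 18 dpp while Tdrd3-202 goes from 56.9% to 82.0%.

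The other 5 genes tested, Tdrd1, Tdrd5, Tdrd7, Tdrkh and Stk31, had no transcript past both limits. Tdrd9 and Rnf17 have 1 transcript each in the annotation used. Tdrd6 was under 3 TPM at the earlier ages, and Tdrd12 had only 1 transcript that reached the 1 TPM asked of at least 2. Tdrd1-204 gained 5.70 points (SE 1.14, adjusted p = 8.92e-04, limma), short of 20.

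Mice 4 and 5 at 18 dpp were both below mice 1 to 3 for 8 of the 10 genes. The mean of mice 1 to 3 was 2.89 times that of mice 4 and 5 for Tdrd6 and 1.74 times for Tdrd7. For Tdrd1, Tdrd3, Tdrd5, Tdrd9, Tdrd12 and Rnf17 this ratio ran from 1.10 to 1.21. Tdrkh and Stk31, at 0.98 each, overlapped between the 2 sets of mice. Of all genes, 25.2% were lower in both of these mice than in each of the others. The same mice had the lower Ldhc and higher Sertoli levels given above, whose part in this was not tested.

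**Figure D4:**
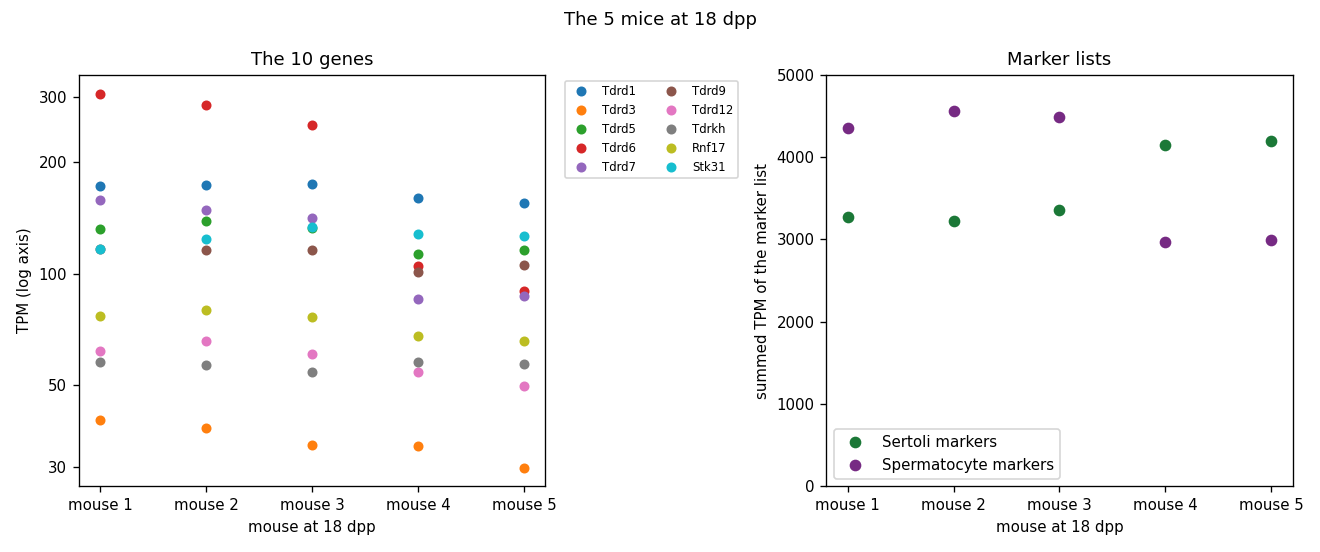
The 5 mice at 18 dpp, with TPM of the 10 genes on a log axis at the left and the summed TPM of the Sertoli and spermatocyte marker lists at the right. Tdrd6 falls from 252 to 307 TPM in mice 1 to 3 to 89.9 and 105 TPM in mice 5 and 4, and the order of the marker sums is reversed in mice 4 and 5. Without Ldhc the spermatocyte sums are 1442, 1517, 1590, 1382 and 1450 TPM in mice 1 to 5. These lie below the Sertoli sum in every mouse, so the reversal rests on Ldhc.

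Set beside 18 dpp, the adult samples held more of Tdrd3, Tdrd5, Tdrd6, Tdrd7, Tdrd12 and Rnf17. Every adult sample was above every mouse, which held for 22.3% of all genes. The adult mean was 3.50 times the 18 dpp mean for Tdrd6, 2.15 times for Tdrd7 and 1.32 to 1.54 times for the other 4. Tdrd1, Tdrd9 and Stk31 overlapped, at 1.09, 0.890 and 1.01 times. The adult and juvenile values come from tables made separately, so no test was run. At 18 dpp the samples were mixed germ cells, mostly spermatogonia in the paper's cell counts, whereas the adult samples were enriched spermatocytes. Median sums of Sertoli markers were 3362 TPM at 18 dpp and 371 TPM in the adult samples, and those of spermatid markers 2.34 and 1020 TPM. The part of cell makeup in these differences was not tested. By adult mean the order was Tdrd6 (728 TPM), Tdrd7 (267), Tdrd5 (194), Tdrd1 (182), Stk31 (127), Tdrd9 (98.7), Rnf17 (96.5), Tdrd12 (83.8), Tdrd3 (53.9) and Tdrkh (40.0 TPM). Within this order the samples of Tdrd5 and Tdrd1 overlapped, as did those of Tdrd9 and Rnf17, and the other neighbours did not. At 8 dpp the order had been Stk31, Tdrd1, Tdrd9, Tdrd7, Tdrkh, Rnf17, Tdrd3, Tdrd5, Tdrd12 and Tdrd6.

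Related genes were followed for comparison. Among 17 PIWI proteins and piRNA factors, 12 were higher at 18 than at 8 dpp, 4 were lower and 1 was not called, with a median log2 change of 0.94. Of all genes, 31.8% were called higher and 36.3% lower. Piwil1, the PIWI protein of pachytene cells, went from 2.55 ± 0.55 TPM (n = 3) to 354 ± 53.3 TPM (n = 5). Its log2 change was 6.64 (SE 0.25, adjusted p = 2.59e-17, limma). Mael, needed for transposon silencing, rose by 2.08 (SE 0.15). Piwil4, the nuclear PIWI protein of fetal germ cells, fell by 1.16 (SE 0.14), and Morc1, which also silences transposons, fell by 0.97 (SE 0.12).

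Of the 3 members of the methylosome, whose PRMT5 makes the symmetric methylarginines that Tudor domains read, Prmt5 was higher (57.2 ± 3.15 to 83.1 ± 3.83 TPM, n = 3 and 5, log2 change 0.53, SE 0.06), Clns1a fell by 0.30 (SE 0.07) and Wdr77 was not called. The 20 other Tudor domain genes, mostly chromatin and splicing proteins, split into 4 higher, 10 lower and 6 not called, with a median of -0.17. The shares over all genes were 31.8% higher and 36.3% lower, with a median of -0.09. Phf1, a polycomb partner, rose by 2.52 (SE 0.16) and Lbr, of the nuclear envelope, by 0.43 (SE 0.08). Snd1, a nuclease of RNA granules, fell by 1.10 (SE 0.11) and Kdm4a, a histone demethylase, by 0.64 (SE 0.08).

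In 9 other germ granule and RNA decay genes, 3 were higher and 6 lower, with a median of -0.27, beside 31.8% higher and 36.3% lower of all genes. Ybx2, which stores mRNAs in germ cells, went from 29.4 ± 4.81 TPM (n = 3) to 1244 ± 296 TPM (n = 5), a log2 change of 5.33 (SE 0.22), and Ddx25, a chromatoid body helicase, rose by 2.83 (SE 0.20). Xrn1, an exonuclease, fell by 0.92 (SE 0.11), and Tnrc6a, a partner of Argonaute proteins, fell by 0.74 (SE 0.08). Adjusted p-values of the genes said to have risen or fallen in these lists were all under the threshold (limma). The tenth gene, Tsks, was absent from the juvenile gene table and was at 0.31 TPM at 8 dpp, 1.80 TPM at 18 dpp and 25.1 TPM in the adult samples.

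**Figure D5:**
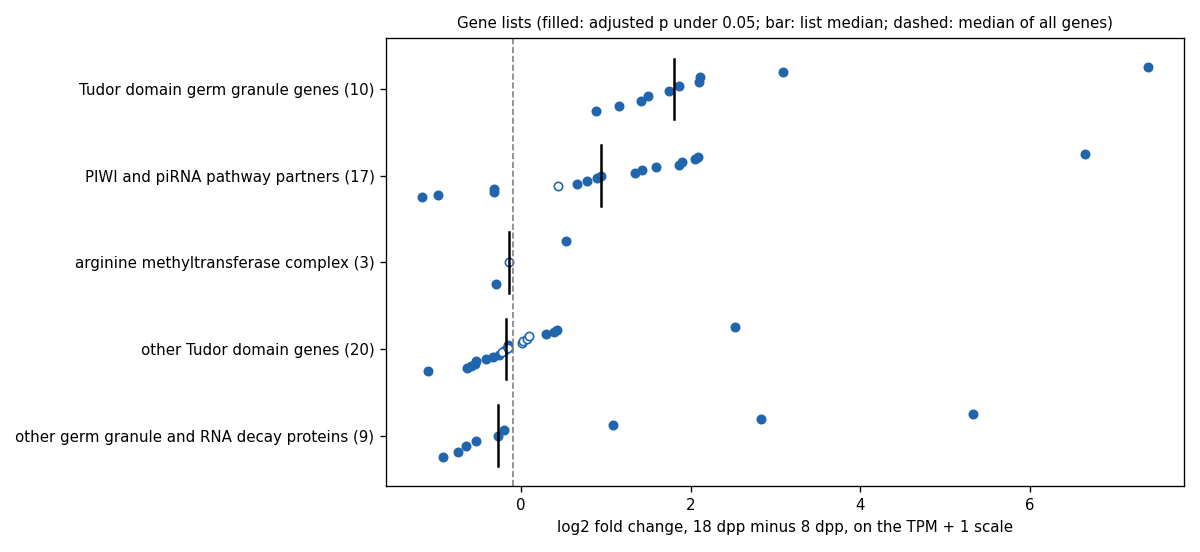
Log2 fold change from 8 to 18 dpp of every gene in the 5 lists, on the TPM + 1 scale. Filled points have an adjusted p under 0.05, bars are list medians and the dashed line is the median of all genes at -0.09, and the 10 Tudor domain germ granule genes lie between 0.89 and 7.38.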

How the data were processed

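Germ cell RNA-seq tables of 28 juvenile mice and 4 adult samples were used. The authors aligned 100 bp paired-end reads with Bowtie 1.0.0 to Ensembl release 75, NONCODE version 4 and piRNA precursors (mm10), and RSEM 1.2.8 gave the deposited TPM of the transcript and adult tables. The deposited juvenile gene table held exp(log2(TPM + 1)) - 1, a unit other than the TPM expected, and was turned back to TPM; 20288 of 20368 genes then differed from the sum of their transcripts by at most 0.2 TPM in all mice, and the members by at most 0.01. Its column of the authors' substage calls was not used. TPM keeps no counts, so depth is unknown and errors are the spread between mice. Groups came from the labels, with the mouse numbers of the sample titles.

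The 10 genes, the comparison lists and the markers were chosen with earlier results of these data known. All 10 genes are named, and of each comparison list the 2 largest called rises and falls. limma 3.58.1 in R 4.3.3 was fitted to log2(TPM + 1) of genes that reached a TPM of 3 in 1 mouse or more, with 6 age means, a trended prior variance and Benjamini-Hochberg adjustment over 20368 genes. Transcript percentages were tested likewise between 8 and 10 dpp and 16 and 18 dpp in genes of at least 3 TPM in both with at least 2 transcripts of 1 TPM or more. The test was checked on simulated data. Annotation was GENCODE M21 (GRCm38), and promoters were those of RefSeq (GRCm38.p6), less bases of annotated exons where printed. Other pseudocounts, filters, scalings, variance models, a replicate block and leaving out mice were tried. Python 3.11.15, pandas 2.3.3, numpy 2.4.6 and matplotlib 3.10.9 were used.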

Additional observations from a re-analysis of the deposited data

Results flagged for a closer look

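Among 60 sets of values, each of 1 gene in a group of 4 or 5 samples, 2 held a sample far from the others by Dixon's criterion, where chance alone gives about 1 in 20. Tdrd6 in mouse 2 at 10 dpp was at 1.05 TPM against 0.05 to 0.11 TPM in the other 4 mice, a gap of 0.94 of the range. The spermatocyte sum of this mouse, 336 TPM, lay within the range of the other 10 dpp mice, and so did its Adam32 level of 0.44 TPM. Its Tcp11 level of 2.05 TPM was the highest of this age, against 0.79 to 1.66 TPM, and so was its Ldhc level of 3.78 TPM, against 1.01 to 2.85 TPM. Tcp11 and Adam32 had been picked for their likeness to Tdrd6 over all juvenile mice, this one included. Tdrkh in mouse 2 at 14 dpp was at 33.49 TPM against 38.8 to 40.6 TPM in the others, a gap of 0.75 of the range.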

How the results depend on the processing

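The rise from 8 to 18 dpp was called for all 10 genes in all 40 alternative settings of the test, 39 planned and 1, without mice 4 and 5 of 18 dpp, chosen after seeing the data. The log2 changes ran from 0.79 to 1.06 for Tdrkh, the smallest, and from 2.91 to 3.27 for Tdrd5, and no setting reversed a direction. Leaving out 1 mouse at a time gave 6 to 7 members called from 10 to 12 dpp, 9 to 10 from 14 to 16 dpp and 9 to 10 from 16 to 18 dpp. From 12 to 14 dpp it gave 0 to 2 in place of 0: 1 without mouse 3 of 12 dpp and 2 without mouse 1 of 16 dpp. Single steps that lost their call were those of Tdrd1 from 10 to 12 dpp in 2 settings, Tdrd3 from 14 to 16 dpp in 4, Tdrkh from 16 to 18 dpp in 23 (adjusted p 0.0504 to 0.312, limma) and Stk31 from 16 to 18 dpp in 1. With no minimum change required, 2 members rather than 1 had a transcript call, and each replicate left out gave 1. Mouse numbers did not pair the samples: same-numbered mice of different ages had a median correlation of 0.0147 over 57 pairs, 3 of them over 0.1. Mice 6 and 7 of 14 dpp shared a number with no other mouse and were in none of these pairs. With a replicate block 9 members were called from 14 to 16 dpp and 9 from 16 to 18 dpp, without Tdrd3 (adjusted p = 0.0883, limma) and Tdrkh (adjusted p = 0.0656), and the block changed no other count of members called. In that fit mice 6 and 7 of 14 dpp each had a block term of their own, so the 14 dpp mean rested on mice 1 to 3 of that age. Leaving out each adult sample moved the adult means by less than their SD, for example 720.4 to 741 TPM for Tdrd6. With 4 samples a move as large as the SD is not possible, so this limit could not be crossed. Whether same-age mice were littermates or were prepared on the same day is not given in the sources used here. No counts were at hand, so low values such as those of Tdrd6 before 16 dpp have a counting error that is not known.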
